A study of Mus musculus with 6 samples.

Results

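The 10 genes described here, Hif1a, Epas1, Egln3, Vegfa, Adm, Slc2a1, Pdk1, Bnip3, Ndrg1 and Ankrd37, belong to the cellular response to low oxygen, and were picked by gene symbol out of 47069 genes counted in mouse lung. Lungs were collected at ZT10, that is 10 h after lights on, from 3 WT mice (WT4, WT5 and WT6) and 3 KO mice (KO4, KO5 and KO6), and 1 RNA-seq library was made per mouse. KO mice carried a germline deletion of the 5′ part of Zpbp2 (exons 1 to 3) on the C57BL/6J background, and WT mice were C57BL/6J animals of the same colony. All mice were adults, both sexes were used in the study, and the sex of each mouse is not given in the labels. The labels name no exposure to low oxygen. The deletion is present in every tissue from conception, so acute and developmental effects of it cannot be told apart, and the lungs were sequenced whole. In such bulk samples, fewer cells of a type and less RNA per cell cannot be told apart.

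Cells sense oxygen mainly through the hypoxia-inducible factors (HIFs). The oxygen-sensitive subunits, HIF-1α (encoded by Hif1a) and HIF-2α (encoded by Epas1), are made all the time, but in the presence of oxygen they are hydroxylated by prolyl hydroxylases of the EGLN family, bound by the VHL ubiquitin ligase and degraded. When oxygen falls they persist, pair with ARNT, and bind a short core motif, ACGTG or GCGTG, in the regulatory DNA of genes for glucose uptake, glycolysis, vessel growth, vascular tone, mitochondrial clearance and collagen processing. Oxygen thus acts on the HIF proteins, whereas the present data hold RNA only. In the lung, HIF-2α is known for its high abundance in endothelial cells, and Vegfa is made by the alveolar epithelium next to the capillaries.

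Since members of the response are tied together by the HIF core motif, the 250 bases before their start sites were read from the RefSeq promoter windows of GRCm38.p6. The table held 10 windows for 8 of the genes, with 2 windows each for Vegfa and Pdk1. Epas1 and Ndrg1 were not matched. The letters ACGTG and GCGTG were searched on both strands, and CACGTG, the E-box bound by clock and MYC family factors, holds ACGTG on both strands and so counts as 2 overlapping matches. At least 1 match was found in 8 of the 10 windows, and each of the 8 genes had a window with one. For Vegfa, the window at the outer start held 0 matches. Its 2 matches lay in the other window, inside the gene, where 218 of the 250 bases were exonic in Vegfa itself. Of all 32851 windows in the table, 38.6% held a match and 6.0% held CACGTG. The 10 windows had a median G and C content of 61.8%, against 52.4% over all windows, and its part in the share of matches was not tested. Among the other hypoxia pathway genes described further on, 66 of 93 windows (71.0%) held a match. These are matches of letters and say nothing of binding. The 3 windows printed here, from 5′ to 3′ on the strand of the gene, belong to the gene that passed the test (Pdk1) and to both genes with a CACGTG (Hif1a and Bnip3), with every match in capitals.

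Pdk1, chr2:71872974-71873223, plus strand, ending 1 base before the start site: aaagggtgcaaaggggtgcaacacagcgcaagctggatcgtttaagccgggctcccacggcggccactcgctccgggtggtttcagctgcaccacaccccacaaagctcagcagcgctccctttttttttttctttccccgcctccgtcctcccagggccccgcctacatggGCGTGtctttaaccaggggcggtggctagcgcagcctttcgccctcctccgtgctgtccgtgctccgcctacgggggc

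Hif1a, chr12:73907617-73907866, plus strand: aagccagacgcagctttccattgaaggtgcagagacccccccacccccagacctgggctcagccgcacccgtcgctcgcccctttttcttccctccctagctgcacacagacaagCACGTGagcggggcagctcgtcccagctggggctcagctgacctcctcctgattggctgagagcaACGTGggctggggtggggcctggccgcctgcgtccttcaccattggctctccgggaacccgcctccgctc

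Bnip3, chr7:138909507-138909756, minus strand: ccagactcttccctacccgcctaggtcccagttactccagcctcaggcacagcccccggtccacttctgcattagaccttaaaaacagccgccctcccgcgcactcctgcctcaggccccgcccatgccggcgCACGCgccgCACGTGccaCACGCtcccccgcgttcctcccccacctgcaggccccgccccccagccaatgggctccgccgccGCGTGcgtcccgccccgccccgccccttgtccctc

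The printed Pdk1 window had 1 match, at position -78 from the start site. The Hif1a window had a CACGTG whose overlapping matches began at -135 and -134, and an ACGTG at -70. The Bnip3 window had 5 matches, at -117, -108, -107, -99 and -35, of which those at -108 and -107 formed the CACGTG, and its last 13 bases lay in an annotated exon of Bnip3. No base of the printed Pdk1 window or of the Hif1a window was exonic. The other Pdk1 window held 0 matches, and all of its 250 bases were exonic in Pdk1 itself. The RefSeq start of Hif1a lies downstream of the first base of the gene as annotated by GENCODE, so that this window is not at the outermost start.

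Total counts ranged from 19981428 (KO6) to 46796908 (KO5) per mouse, at which 3 counts correspond to 0.0629 to 0.148 CPM, that is counts scaled to a common library size with the TMM method. Zpbp2 itself had 1, 2 and 2 counts in WT4 to WT6 and 0 counts in each KO library, at or under 3 counts everywhere, so that these counts check the genotype only weakly. Of 17037 genes with enough counts for the edgeR quasi-likelihood test, 1089 (6.39%) had an adjusted p of at most 0.05, with 634 (3.72%) higher and 455 (2.67%) lower in the KO mice. A gene that passed this threshold is called changed below. Since each library is a separate mouse, the p-values set the difference between KO and WT against the spread between mice of the same group. The estimate of that spread draws on all tested genes.

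All 10 hypoxia response genes had enough counts to be tested. Per kilobase of exon, which allows levels of different genes to be compared, they spanned a wide range. Epas1 stood at 661 ± 55.6 CPM per kb (SD over the 6 mice), above 99.8% of the 16972 tested genes with a known exon length. Vegfa followed with 247 ± 21.7 CPM per kb, above 99.4% of genes. After these came Bnip3 (26.5 ± 1.70 CPM per kb), Hif1a (16.9 ± 1.30) and Ndrg1 (8.29 ± 0.884), and then Slc2a1 (7.43 ± 0.356), Pdk1 (6.01 ± 0.851) and Ankrd37 (4.19 ± 0.631). Adm with 1.88 ± 0.412 CPM per kb and Egln3 with 0.904 ± 0.185 were the lowest, and only 17.6% of genes lay below Egln3. Neighbours in this order had separate ranges over the 6 mice, except Ndrg1 and Slc2a1, and Slc2a1 and Pdk1, whose ranges overlapped. In each of the 6 mice the level of Epas1 per length was far above that of Hif1a, with 611 CPM per kb in the lowest mouse for Epas1 and 18.9 in the highest mouse for Hif1a.

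**Figure D1:**
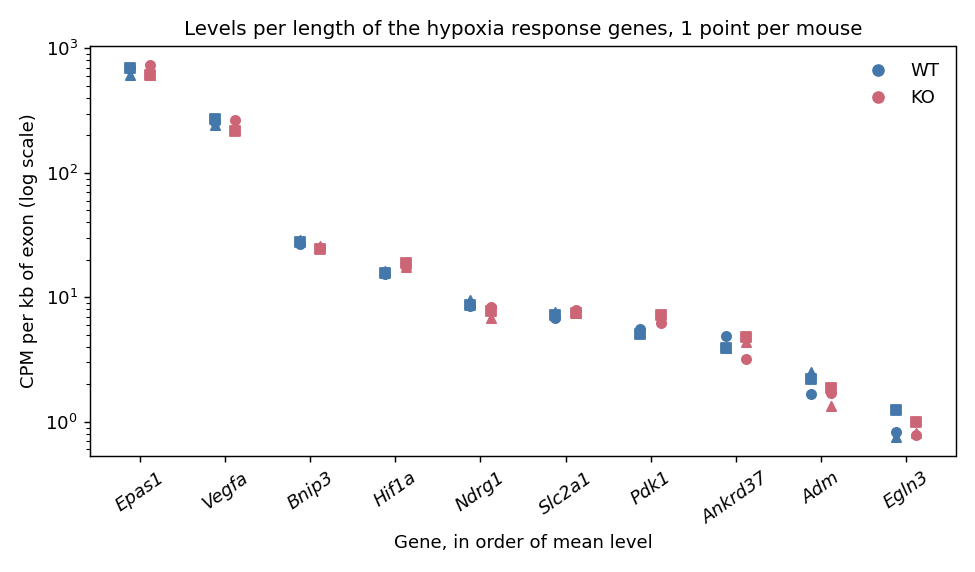
Level of each hypoxia response gene per kilobase of exon (CPM per kb, log scale) in 3 WT mice (blue) and 3 KO mice (red), 1 point per mouse (circle, mouse 4, square, mouse 5, triangle, mouse 6), ordered by mean level. Epas1 and Vegfa lie above 200 CPM per kb in all mice and the other 8 genes lie below 30, with WT and KO points close together within each gene.

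KO and WT lungs were then compared gene by gene. One of the 10 genes was called: Pdk1 was 1.27-fold higher in the KO mice. Of the other 9, Hif1a and Slc2a1 had fold changes above 1 and Epas1, Egln3, Vegfa, Adm, Bnip3, Ndrg1 and Ankrd37 below 1, and none passed the test. One call among 10 genes lies near the 6.39% over all genes. The threshold of the study for a differentially expressed gene was an absolute log2 fold change of at least 1.5 with an adjusted p of at most 0.05. In the present fit 0 of the 10 genes and 109 of all genes (0.64%) passed it. The study made its own edgeR and DESeq runs and listed another number of genes. The median log2 fold change of the 10 genes was -0.07, against 0.00 over all tested genes, and their median absolute log2 fold change was 0.133, against 0.146. With DESeq2 the number called was also 1, again Pdk1, against 11.2% of all genes. In 4 of the 10 genes the 3 KO values lay all on the same side of the 3 WT values, which was the case for 32.6% of all genes. In Pdk1 and Hif1a the KO values were the higher ones (17.0% of all genes) and in Bnip3 and Ndrg1 the lower ones (15.6% of all genes). In a two-sided exact permutation test each of these 4 genes reached p = 0.1, the smallest that 3 against 3 mice can give, and for the other 6 genes p lay between 0.3 and 0.9.

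**Figure D2:**
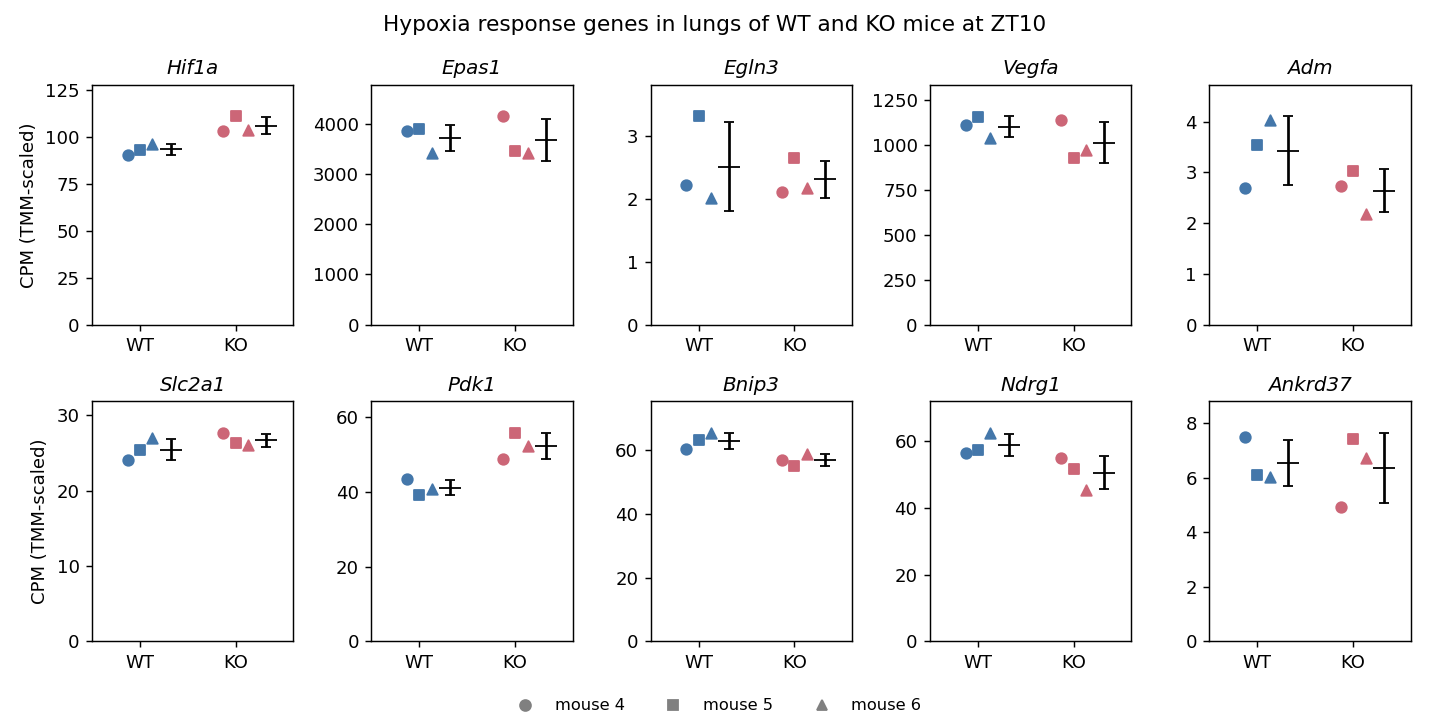
CPM of the 10 hypoxia response genes in each WT mouse (blue) and KO mouse (red), with the mean and SD of each group beside the points (n = 3), on axes that start at 0. The groups are apart in Hif1a and Pdk1 (KO higher) and in Bnip3 and Ndrg1 (KO lower), and overlap in the other 6 genes.

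The oxygen-regulated transcription factors come first. Hif1a (ENSMUSG00000021109, GRCm38 chr12:73901375-73947530, plus strand) had 90.8, 93.4 and 96.3 CPM in WT4, WT5 and WT6 and 103.2, 111.3 and 104.0 CPM in KO4, KO5 and KO6. Each KO mouse was above each WT mouse, and the lowest KO value was 103.2 against the highest WT value of 96.3. This was a log2 fold change of 0.18 (SE 0.0513, 95% interval 0.06 to 0.30) with an adjusted p of 0.0790 in the edgeR fit, so Hif1a was not called, and DESeq2 gave an adjusted p of 0.0576. Leaving out each mouse in turn gave log2 fold changes of 0.14 to 0.20. Exons of the antisense gene Gm15283 cover 330 bases of Hif1a exons, but that gene had only 19 counts over all 6 libraries. Exons of the protein-coding gene Gm49321, on the same strand, cover 148 bases of Hif1a exons. Gm49321 was not among the counted genes, and its part in the Hif1a values was not tested.

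Epas1 (ENSMUSG00000024140, chr17:86753700-86833410, plus strand) had 3858, 3884 and 3419 CPM in WT4 to WT6 and 4147, 3446 and 3418 CPM in KO4 to KO6. The groups overlapped fully, with the highest and the lowest value both in KO mice. The log2 fold change was -0.02 (SE 0.102, 95% interval -0.26 to 0.22), and its sign depended on which mouse was included. This interval leaves room for a difference of either sign of up to the interval's bounds, and does not show that the level was equal.

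The genes whose profile over the 6 libraries was nearest to that of Hif1a, by the root mean square difference of centred log2 CPM, were Atr (0.0128), which encodes a DNA damage kinase, Nup93 (0.0154), which encodes a nuclear pore protein, and Lrig2 (0.0173). Their log2 fold changes were 0.18, 0.16 and 0.19, with adjusted p-values of 0.127, 0.173 and 0.117 in the edgeR fit, so none of them was called either. For scale, the SD of Hif1a over the libraries was 0.110 on the log2 scale. Nearest to Epas1, whose SD was 0.120, were Lama5 (0.0165), a laminin chain of basement membranes, Gfod1 (0.0216) and Brf2 (0.0242), a factor of RNA polymerase III transcription. The fold changes of Lama5, Gfod1 and Brf2 were close to 0, with log2 values of -0.03, -0.02 and -0.03. These nearest genes were picked for likeness over the same 6 libraries. Fold changes near those of Hif1a and Epas1 therefore follow from the choice.

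Egln3, the prolyl hydroxylase of the family that is itself induced by HIF, is the feedback gene of the list. Egln3 (ENSMUSG00000035105, chr12:54178981-54203860, minus strand) had 55, 69 and 62 counts in the WT libraries and 43, 126 and 44 in the KO libraries, or 2.21, 3.31 and 2.01 CPM against 2.10, 2.64 and 2.17 CPM. The groups overlapped, and WT5 was the highest of all 6. The log2 fold change of -0.10 had the widest interval of the 10 genes, -0.64 to 0.44, and without WT5 it was 0.14.

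Of the secreted products, Vegfa drives vessel growth and Adm encodes adrenomedullin, a vasodilator peptide that keeps the endothelial barrier tight. Vegfa (ENSMUSG00000023951, chr17:46016993-46032369, minus strand) had 1107, 1155 and 1039 CPM in WT4 to WT6 and 1139, 926 and 972 CPM in KO4 to KO6. KO5 and KO6 were below all WT mice, while KO4 was within the WT range. The log2 fold change was -0.12 (SE 0.0913, 95% interval -0.33 to 0.09; adjusted p of 0.457 in the edgeR fit), and without KO4 it was -0.22. The summed CPM of 7 alveolar type 1 markers showed the same order of KO mice, with 5669 in KO4, 4911 in KO5 and 4933 in KO6 against 5810 to 5850 in the WT mice. Of the 7, edgeR called 1 (Rtkn2, lower), with 3 at an unadjusted p under 0.05, and DESeq2 called 3. In 4 of the 7 all KO values lay below all WT values (15.6% of all genes). The call of Rtkn2 was lost without KO6, WT4 or WT5, with adjusted p-values of 0.0689, 0.0690 and 0.108 in edgeR. The order of KO4, KO6 and KO5 was the same for the summed CPM of 12 endothelial markers (6515, 6026.5 and 5650). It was also the same for 7 alveolar type 2 markers (22189, 20617 and 17336). It was not the same for 5 markers of aerocyte capillary cells, which were lowest in KO4. Their summed CPM was 409 in KO4, 695 in KO5 and 699 in KO6, against 641 to 765 in the WT mice. Among the WT mice, Vegfa was highest in WT5, which had the lowest type 1 sum (5810). The part of these cell types in the Vegfa values was not tested.

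Adm (ENSMUSG00000030790, chr7:110627661-110629820, plus strand) had 67, 74 and 125 counts in the WT libraries and 56, 144 and 44 in the KO libraries, or 2.70, 3.55 and 4.04 CPM against 2.74, 3.02 and 2.17 CPM. Adm thus had the most negative log2 fold change of the 10 genes, -0.37, but with an SE of 0.208 and overlapping groups (95% interval -0.86 to 0.12; adjusted p of 0.318 in the edgeR fit). Egln3 and Adm had the fewest counts and the widest intervals of the 10 genes, and a difference in size like that of Pdk1 lies inside both.

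The metabolic targets were Slc2a1, the glucose transporter GLUT1, and Pdk1, the pyruvate dehydrogenase kinase that diverts pyruvate away from mitochondria. Pdk1 (ENSMUSG00000006494, chr2:71873224-71903858, plus strand) had 43.5, 39.3 and 40.8 CPM in WT4, WT5 and WT6 and 48.8, 55.9 and 52.2 CPM in KO4, KO5 and KO6. The lowest KO mouse, KO4, was above the highest WT mouse, WT4, and the difference between groups exceeded the spread within them. Pdk1 averaged 41.2 ± 2.12 CPM over the WT mice and 52.3 ± 3.55 over the KO mice (SD, n = 3 each), and the log2 fold change of 0.35 (SE 0.0688, 95% interval 0.18 to 0.51) had an adjusted p of 0.0359 in the edgeR quasi-likelihood fit and of 0.00303 in DESeq2. Its size stayed between 0.29 and 0.39 when each mouse was left out in turn, but the call held only without KO4 (adjusted p 0.0310) and was lost without KO5 (0.0550), KO6 (0.0944), WT4 (0.0769), WT5 (0.152) or WT6 (0.105). The 3 other kinases of this family, Pdk2, Pdk3 and Pdk4, had log2 fold changes of 0.11, 0.03 and -0.16 and were not called.

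Slc2a1 (ENSMUSG00000028645, chr4:119108711-119137983, plus strand) had 24.1, 25.4 and 26.9 CPM in the WT mice and 27.7, 26.3 and 26.1 CPM in the KO mice. The 2 groups overlapped, and the log2 fold change was 0.07 (SE 0.0670, 95% interval -0.09 to 0.22; adjusted p of 0.581 in the edgeR fit).

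Pdk1 and Hif1a both had their highest value in KO5, the deepest library. KO5 was also the mouse with the highest summed CPM of 7 B cell markers, at 956 against 229 in KO4, 264 in KO6 and 115 to 136 in the WT mice, and of 7 T cell markers, at 131 against 50.8 to 68.6 in the other KO mice and 44.5 to 49.0 in the WT mice. For all 7 B cell markers the lowest KO value exceeded the highest WT value, which was the case for 17.0% of all genes. Of these markers edgeR called 0 (7 at an unadjusted p under 0.05) and DESeq2 called 7. Of the T cell markers edgeR called 0 (6 at an unadjusted p under 0.05) and DESeq2 4. Without KO5 the log2 fold change was 0.29 for Pdk1 and 0.14 for Hif1a. Expression of either gene in lymphocytes was not measured here, and the part of these cells in the values of Pdk1 and Hif1a was not tested.

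The remaining targets act in mitochondrial clearance and stress. Bnip3, a mitochondrial outer membrane protein that triggers mitophagy (ENSMUSG00000078566, chr7:138890836-138909519, minus strand), had 60.3, 63.3 and 65.4 CPM in the WT mice and 57.0, 55.2 and 58.8 CPM in the KO mice. All KO values were below all WT values, by a narrow margin of 58.8 against 60.3 CPM. This gave a log2 fold change of -0.15 (SE 0.0522, 95% interval -0.27 to -0.02), with an adjusted p of 0.139 in the edgeR fit (0.0258 before adjustment).

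Ndrg1, a stress-responsive protein known from growth arrest and myelin maintenance (ENSMUSG00000005125, chr15:66929318-66969640, minus strand), had 56.4, 57.4 and 62.5 CPM in the WT mice and 54.8, 51.6 and 45.2 CPM in the KO mice. The groups did not overlap, with KO6 the lowest. The log2 fold change was -0.22 (SE 0.0812, 95% interval -0.41 to -0.03), the adjusted p was 0.153 in the edgeR fit, and the estimate ranged from -0.28 to -0.14 when mice were left out. Neither Bnip3 nor Ndrg1 was called by DESeq2, where the adjusted p-values were 0.216 and 0.148.

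Ankrd37, an ankyrin repeat protein whose gene is a direct HIF target (ENSMUSG00000050914, chr8:45996902-46005707, minus strand), had 7.49, 6.09 and 6.02 CPM in the WT mice and 4.94, 7.43 and 6.72 CPM in the KO mice. The lowest value was in KO4 and the highest in WT4, so that the groups overlapped fully, with a log2 fold change of -0.03 (SE 0.182, 95% interval -0.46 to 0.40). On the opposite strand, exons of Ufsp2 (4624 counts in all 6 libraries) and Lrp2bp (367 counts) overlap Ankrd37 exons by 57 and 349 bases. The library kit keeps strand, but the strand setting of the counting is not given in the sources used here, so the Ankrd37 values are uncertain.

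**Figure D3:**
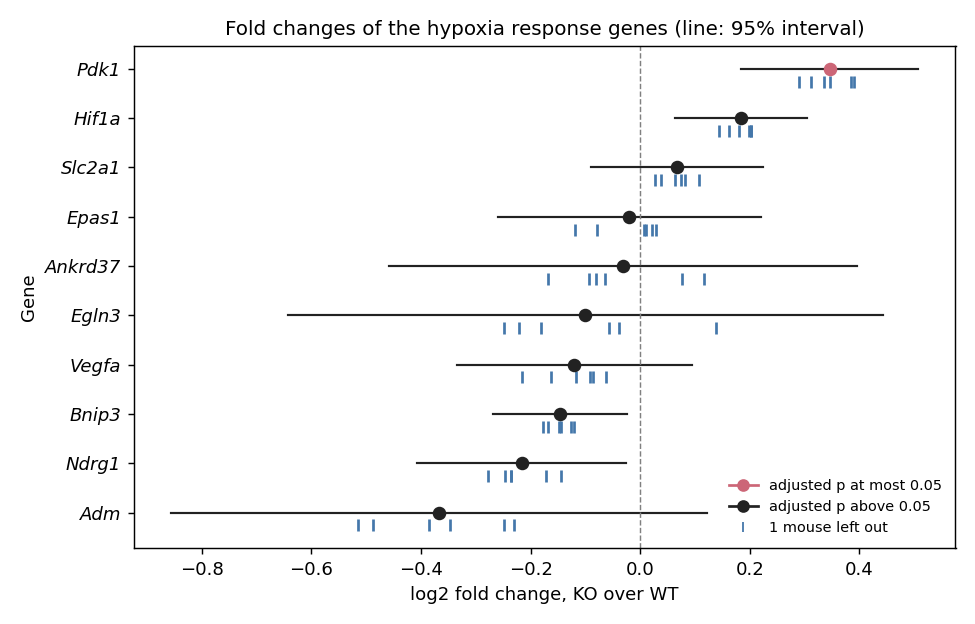
Log2 fold change of each gene (KO over WT, 3 mice each, dots) with its 95% interval (lines) from the edgeR fit, and the log2 fold changes with each of the 6 mice left out in turn (ticks). Pdk1 (red) is the one gene with an adjusted p of at most 0.05, the intervals of Hif1a, Bnip3 and Ndrg1 also exclude 0 before adjustment, and the ticks of Epas1, Ankrd37 and Egln3 fall on both sides of 0.

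The 10 genes are a small share of the hypoxia response, so 4 lists of other genes of the pathway were counted in the same fit. Of the 81 genes tested, 6 were called (7.41%, against 6.39% of all genes), 1 higher and 5 lower in the KO mice. The median log2 fold change over the 81 genes was -0.07, the same as for the 10 genes. DESeq2 called 12 of them, against 11.2% of all genes. In 29 of the 81 genes the groups did not overlap (32.6% of all genes), with the KO values higher in 8 (17.0% of all genes) and lower in 21 (15.6% of all genes).

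The machinery that senses oxygen and removes HIF held 14 genes, and edgeR called 0 of them, with 5 at an unadjusted p under 0.05, while DESeq2 called 1, Rbx1. Their median log2 fold change was -0.09. The ubiquitin ligase subunit Elob (39.4 CPM per kb) and the prolyl hydroxylase Egln2 (27.0) had the highest levels, and their log2 fold changes were -0.08 and -0.11. The prolyl hydroxylase Egln1, the main oxygen sensor of the family, had a log2 fold change of -0.21 with an adjusted p of 0.131 in the edgeR fit, Vhl -0.10, and the HIF partner Arnt 0.02. Closest to the threshold were Arnt2, a rare partner subunit (1.16 ± 0.287 CPM in WT and 2.19 ± 0.134 in KO mice; adjusted p of 0.0516 in the edgeR fit), and Rbx1, the RING subunit of the VHL ligase (log2 fold change -0.19, adjusted p 0.0607).

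Of 20 genes of glucose uptake and glycolysis, edgeR called 0, with 2 at an unadjusted p under 0.05, and DESeq2 called 1, lactate dehydrogenase Ldha (log2 fold change -0.19), whose adjusted p of 0.107 was the lowest of the list in edgeR. Their median log2 fold change was 0.03 and all values lay between -0.20 and 0.32 on the log2 scale. The most abundant per length were the enzymes Aldoa (153 CPM per kb; log2 fold change -0.03) and Pkm (73.9 CPM per kb; log2 fold change 0.05).

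Among 16 tested genes of vessel growth, tone and blood, edgeR called 1 higher and 1 lower (12.5%, against 6.39% of all genes). DESeq2 called 4 of the 16, against 11.2% of all genes. Both genes called by edgeR encode nitric oxide synthases. Nos2, the inducible enzyme of inflammation and macrophages, had 3.02, 2.59 and 3.23 CPM in WT4 to WT6 and 5.43, 5.56 and 4.59 CPM in KO4 to KO6, a log2 fold change of 0.82 (SE 0.152) with an adjusted p of 0.0303 in the edgeR fit. Nos3, the endothelial enzyme, had 39.1, 43.5 and 40.5 CPM in the WT mice and 34.6, 27.1 and 29.2 CPM in the KO mice, a log2 fold change of -0.44 (SE 0.0978) with an adjusted p of 0.0457. The groups did not overlap in either gene. The call of Nos2 was lost in each of the 6 fits without a mouse (adjusted p 0.0508 to 0.133) and that of Nos3 held only without KO4 (0.0197). The adrenomedullin receptor Calcrl, at 298 CPM per kb the most abundant gene of the list, had a log2 fold change of -0.09, and its partner Ramp2, at 102 CPM per kb, one of -0.25 with an adjusted p of 0.0677 in the edgeR fit and 0.00642 in DESeq2. Epo, the kidney hormone of red cell production, had 0 counts in all libraries, and Tf had no row under that symbol.

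Of 31 other targets, 4 were called, all lower in the KO mice, and 24 had a log2 fold change below 0, with a median of -0.125. Over all genes 2.67% were called lower and 8415 of 17037 had a log2 fold change below 0. The 4 genes encode enzymes that modify collagen. The summed CPM of 6 fibroblast markers was 1070 to 1280 in WT mice and 1000 to 1040 in KO mice, with 5 of 6 log2 fold changes below 0, and edgeR called 0 of them (1 at an unadjusted p under 0.05) and DESeq2 1. Smooth muscle markers summed to 559 to 835 CPM in WT mice and 439 to 571 in KO mice, with all 5 log2 fold changes below 0 (median -0.43), and edgeR called 0 of them (4 at an unadjusted p under 0.05) and DESeq2 3. The part of these cells in the values of the collagen enzymes was not tested. P4ha1 and P4ha2, subunits of the collagen prolyl 4-hydroxylase, fell from 157 ± 4.43 to 89.7 ± 4.44 and from 95.1 ± 7.67 to 59.3 ± 2.63 CPM (log2 fold changes of -0.81 and -0.68), with adjusted p-values of 0.00466 and 0.00944 in the edgeR fit, and of the fits with a mouse left out only that without WT5 lost these calls (0.0557 and 0.0672). Lysyl hydroxylase Plod1 (log2 fold change -0.44, adjusted p 0.0235) was no longer called without any one of KO6, WT4, WT5 and WT6 (adjusted p 0.0537 to 0.111), and lysyl oxidase Lox (-0.63, adjusted p 0.0389) was called only in the fit without WT4 (0.0411) among those with a mouse left out. The most abundant genes of the list, the mitophagy receptor Bnip3l (47.4 CPM per kb) and the respiratory chain subunit Cox4i2 (39.6 CPM per kb), had log2 fold changes of -0.06 and 0.06. Of the 10 genes, Bnip3 and Ndrg1 have relatives in this list, and Bnip3l, Ndrg2, Ndrg3 and Ndrg4 had log2 fold changes of -0.06, -0.10, -0.11 and -0.24, none of them called.

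**Figure D4:**
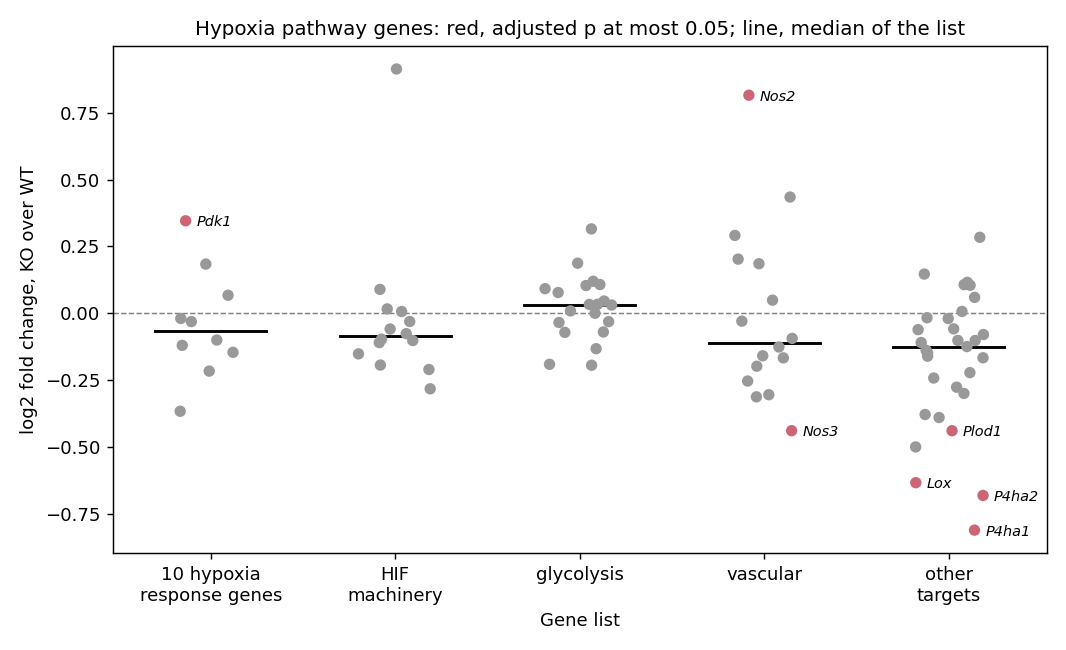
Log2 fold changes (KO over WT, 3 mice each) of the 10 hypoxia response genes and of the tested genes in 4 lists of the pathway (14, 20, 16 and 31 genes), 1 point per gene, with the list median as a line. Called genes are red and named: Pdk1 among the 10 genes, none in the machinery or glycolysis lists, Nos2 and Nos3 in the vascular list, and Plod1, Lox, P4ha2 and P4ha1, all below 0, among the other targets.

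Several cell type and handling markers differed between the groups while the hypoxia genes were compared. No marker of the lists was at 0 in all libraries. The summed CPM of 12 markers of endothelial cells, the known Epas1-rich cell type, was 6380 to 6800 in WT mice and 5650 to 6520 in KO mice. These ranges overlapped. Of the 12, edgeR called 1 (Cldn5, lower), with 4 at an unadjusted p under 0.05, and DESeq2 called 3, and the call of Cldn5 was lost in each of the 6 fits without a mouse (adjusted p 0.0528 to 0.138). Alveolar type 2 markers, which mark another source of Vegfa, summed to 21600 to 24100 CPM in WT mice and 17300 to 22200 in KO mice, with 0 of 7 called by edgeR, 2 at an unadjusted p under 0.05 and 2 called by DESeq2. Over all genes, 3.72% were called higher and 2.67% lower by edgeR. Of 8 monocyte markers 6 were called higher, but their summed CPM overlapped, with 1680 to 1720 in WT and 1690 to 2030 in KO mice. Of 6 tested neutrophil markers 3 were called higher, with summed CPM of 56.4 to 94.7 in WT and 149 to 168 in KO mice. All 7 alveolar macrophage markers had log2 fold changes above 0 and 1 was called (Marco, 1.26, adjusted p of 0.00665 in the edgeR fit and 0.0557 without WT5), while their sums overlapped, with 440 to 741 CPM in WT and 590 to 762 in KO mice. Red cell genes (2130 to 2280 CPM in WT, 1040 to 1410 in KO mice; 5 of 6 called lower) and heat shock genes (2570 to 3590 in WT, 1230 to 1340 in KO mice; 5 of 7 called lower) had summed levels in the KO mice below those of the WT mice. Immediate early genes, which respond to handling, were highest in WT6 (1236 CPM against 472 to 743 in the other mice), with 0 of 8 called by edgeR, 2 at an unadjusted p under 0.05 and 1 called by DESeq2. The part of cell makeup and handling in the values of the hypoxia genes was not tested.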

How the data were processed

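RNA was extracted from lungs of 3 WT and 3 KO mice, and stranded poly(A) libraries were sequenced, 1 per mouse. The authors processed the reads within GenPipes, and the submitters' processing notes name Trimmomatic 0.36, STAR 2.5.3a, Picard 2.9.0 and HTSeq 0.6.0 with GRCm38. The annotation release and the strand setting of the counting are not given in the sources used here. The authors deposited whole counts per gene without normalization for 47069 genes, and columns were matched to mice by name. Totals ranged from 19981428 to 46796908 counts.

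All 6 libraries entered 1 edgeR 4.0.16 fit (R 4.3.3, quasi-likelihood F test, TMM, filterByExpr with minimum count 10 and minimum total 15, no covariate), and p-values were adjusted by Benjamini-Hochberg over 17037 genes. The SE of a log2 fold change was taken from the fold change and its F statistic, and its 95% interval uses the total degrees of freedom of the fit. The procedure was tested on simulated counts. Levels per kb used the exon length of GENCODE release M21 (GRCm38), which placed 46574 genes, and promoter windows came from RefSeq (GRCm38.p6). Exact permutation tests of log2 CPM were two-sided. In 14 alternatives, DESeq2 1.42.0, the exact test of edgeR, other scalings and filters, the replicate number as a block and the omission of each mouse were tried.

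The 10 genes and all lists were chosen with earlier results of these data known. The text names the 10 genes, Zpbp2, every called gene of the 4 pathway lists (at most 8 per list) with its 2 highest levels per kb, and the 3 nearest profiles to Hif1a and Epas1. Other genes (Arnt, Arnt2, Egln1, Vhl, Rbx1, Ldha, Epo, Tf, the Pdk and Ndrg relatives, Cldn5, Rtkn2 and Marco) were named after their values were seen.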

Additional observations from a re-analysis of the deposited data

How the results depend on the processing

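Over all genes, 1089 were called, against 1913 with DESeq2, and between 1 (without WT5) and 1278 (without KO4) when each mouse was left out, with 933 without KO5, 254 without WT4, 117 without KO6 and 63 without WT6. Of the 10 hypoxia response genes, 1 (Pdk1) was called under DESeq2, the exact test, 3 other scalings and 2 other filters, and 0 to 1 with a mouse left out, the 1 being without KO4. Of the other pathway genes 6 were called, 12 with DESeq2, and 0 (without WT5) to 7 (without KO4) with a mouse left out, with 4 without KO5, 3 without WT4 and 2 without KO6 or WT6. The log2 fold changes of the 10 genes kept their sign under all 8 alternatives that kept every mouse. With a mouse left out, Epas1 ranged from -0.12 to 0.03, Egln3 from -0.25 to 0.14 and Ankrd37 from -0.17 to 0.12, and Epas1 was above 0 without KO5 (0.0208), KO6 (0.0291), WT4 (0.006) or WT5 (0.01). Nos3 was no longer called with upper-quartile scaling (adjusted p 0.0534). The median log2 fold change of all genes lay between -0.00147 and 0.0108 over the main fit and all 14 alternatives. The causes were not tested. Egln3, Adm and Ankrd37 had the fewest counts of the 10 genes and the widest intervals.

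With the replicate number as a block, 66 of all genes, 0 of the 10 hypoxia response genes and 1 other pathway gene (P4ha1) were called in edgeR, P4ha2 had an adjusted p of 0.0554, and Pdk1 had a log2 fold change of 0.34 with an adjusted p of 0.107. The deviations of same-numbered mice from their group means correlated at -0.03, -0.15 and -0.02 for numbers 4, 5 and 6. The labels do not say what the number stands for. With 1 pair of mice per number, these correlations cannot show whether it marks a shared condition.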
